A study of Mus musculus with 19 samples.

Results

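A set of 9 genes of retinoid metabolism and signalling were examined in sorted cells of the mouse prostate. They were the retinol dehydrogenase gene Rdh10, the retinaldehyde dehydrogenase genes Aldh1a1, Aldh1a2 and Aldh1a3, the genes for the cellular retinoic acid-binding proteins Crabp1 and Crabp2, the retinoic acid receptor genes Rarb and Rarg, and Cyp26b1, which encodes an enzyme that degrades retinoic acid. The members were named by symbol and make up 9 of the 24343 gene symbols in the deposited tables. They were chosen by their measured FPKM across the 6 groups of population and genotype, already known from these libraries (FPKM is a level corrected for the length of the transcript and for sequencing depth), so their levels and differences are given as a description, with no test.

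RNA had been sequenced from basal, luminal and stromal cells sorted by flow cytometry from anterior prostates. The Lgr5-DTR-eGFP mice, called Lgr5-DTR here, carry a diphtheria toxin receptor and a fluorescent reporter at Lgr5, a gene for a receptor of R-spondins, and had been treated with diphtheria toxin to kill Lgr5-expressing cells. From these mice came 4 stromal libraries and 3 of each epithelial population, and wild type control mice supplied 3 per population. The labels name no second allele or agent, give no age, do not say whether the wild type mice received toxin and do not tell whether replicates are different animals. C57BL/6 mice came from a commercial breeder and the Lgr5-DTR mice from another laboratory, so genotype, toxin and origin cannot be told apart. Because the receptor sits at the Lgr5 locus, cells of any kind that express Lgr5 are open to the toxin.

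Cells make retinoic acid from retinol in 2 oxidation steps. RDH10 and related dehydrogenases turn retinol into retinaldehyde, and the ALDH1A enzymes turn retinaldehyde into retinoic acid. CRABP proteins bind retinoic acid in the cytosol, CRABP2 hands it to nuclear receptors, the RAR proteins pair with RXR proteins on DNA to control transcription, and CYP26 enzymes clear it. Retinoids are known for their part in the branching growth of the prostate and in keeping glandular epithelium from turning squamous.

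Depth was 5.26 to 9.38 gigabases per library over 19 libraries, with a median of 7.73 gigabases, and between 9209 and 10819 genes had at least 1 FPKM. Lgr5 itself measured 0.501 to 1.32 FPKM in the 4 Lgr5-DTR stromal libraries and 25.8 to 77.6 FPKM in the 3 wild type ones. Sorting markers followed the labels, with 10 basal markers summing to 10391 to 13355 FPKM in wild type basal and 7683 to 9275 FPKM in Lgr5-DTR basal libraries, against at most 561.3 FPKM in any luminal library. The luminal markers, 12 genes, summed to 26786 to 33422 FPKM in luminal libraries and 4906 to 8601 FPKM in basal ones, with Tgm4 listed at 0 in wild type luminal libraries, where its estimate had failed or been capped. The 10 fibroblast markers summed to 5984 to 6240 FPKM in wild type stromal and 3212 to 3938 FPKM in Lgr5-DTR stromal libraries. Between the tables, 7 libraries carried low-data status entries that the other 12 lacked (called the processing set), with no reason given in the sources used here.

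The promoters of the receptor genes are shown first because their transcripts differed between groups. Rarb is a textbook target of its own ligand, through a direct repeat that retinoic acid receptors bind, and Rarg has 2 annotated starts whose transcripts could be followed separately. The windows hold the 250 bases before each start on the gene's own strand, 5′ to 3′, from RefSeq on GRCm38.p6, and capitals mark a direct repeat. They lie at chr14:16575477-16575726 (minus strand), chr15:102257523-102257772 (minus strand) and chr15:102246501-102246750 (minus strand).
Rarb, start of NM_011243: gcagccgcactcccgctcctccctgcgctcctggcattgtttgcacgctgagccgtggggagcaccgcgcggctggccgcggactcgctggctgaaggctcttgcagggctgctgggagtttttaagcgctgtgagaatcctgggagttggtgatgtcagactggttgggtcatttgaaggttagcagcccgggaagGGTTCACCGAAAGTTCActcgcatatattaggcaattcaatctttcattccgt
Rarg, start of NM_011244: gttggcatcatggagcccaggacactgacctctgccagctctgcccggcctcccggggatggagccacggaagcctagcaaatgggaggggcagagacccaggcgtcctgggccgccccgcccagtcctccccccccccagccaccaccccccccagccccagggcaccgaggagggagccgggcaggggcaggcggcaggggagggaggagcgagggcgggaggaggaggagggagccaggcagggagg
Rarg, start of NM_001042727: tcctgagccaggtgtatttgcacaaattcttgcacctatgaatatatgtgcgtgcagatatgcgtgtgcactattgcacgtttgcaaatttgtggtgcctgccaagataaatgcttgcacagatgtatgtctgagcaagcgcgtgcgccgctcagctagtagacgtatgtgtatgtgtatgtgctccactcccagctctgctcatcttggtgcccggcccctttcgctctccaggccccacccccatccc

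The marked repeat in the Rarb window, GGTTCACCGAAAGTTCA, lay 53 to 37 bases before the start. The search took AGGTCA as the half-site, or GGGTCA in its place, or else AGTTCA, and also GGTTCA in either position, a pair on the same strand with 1, 2 or 5 bases between them, on both strands, with overlaps allowed. Of 32851 mouse promoter windows of 250 bases, 0.0883% held the spacing of 5, 0.174% the spacing of 2 and 0.164% the spacing of 1. Promoter entries were matched for 6 of the 9 genes (Aldh1a1, Aldh1a2, Crabp1, Cyp26b1, Rarb and Rarg), with 8 windows in all, and 1 of these 8 held a repeat. A match is a string of letters, and binding was not measured here.

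Rdh10 (NM_133832, chromosome 1, 16105882 to 16132550, mm10), which makes retinaldehyde, had a graded level that was highest in stroma. In wild type it measured 138.9, 149.2 and 79.6 FPKM in the stromal libraries, 23.3, 29.3 and 33.4 FPKM in the basal and 7.62, 4.47 and 7.13 FPKM in the luminal. Lgr5-DTR stromal libraries held 256.6, 235.0, 234.1 and 125.6 FPKM, basal libraries 55.5, 33.3 and 25.6 FPKM and luminal libraries 19.5, 12.7 and 10.5 FPKM. Stromal libraries lay above all basal ones and basal above all luminal ones in both genotypes. Between genotypes, the luminal groups did not overlap, at 14.2 ± 4.65 FPKM in Lgr5-DTR and 6.41 ± 1.70 FPKM in wild type (SD, n = 3 each), a ratio of 2.22 and a log2 difference of 1.02 (SE 0.27, on the log2(FPKM + 1) scale used throughout, Lgr5-DTR minus wild type). The stromal means were 212.8 ± 59.1 (SD, n = 4) and 122.6 ± 37.5 FPKM (SD, n = 3), with Lgr5-DTR replicate 4 inside the wild type range, and the basal means were 38.1 ± 15.5 and 28.7 ± 5.07 FPKM (SD, n = 3 each), with overlap. The log2 differences were 0.79 (SE 0.29) in stroma and 0.34 (SE 0.27) in basal cells, the latter ranging from 0.04 to 0.58 as each library was left out (0.04 without Lgr5-DTR replicate 1).

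**Figure D1:**
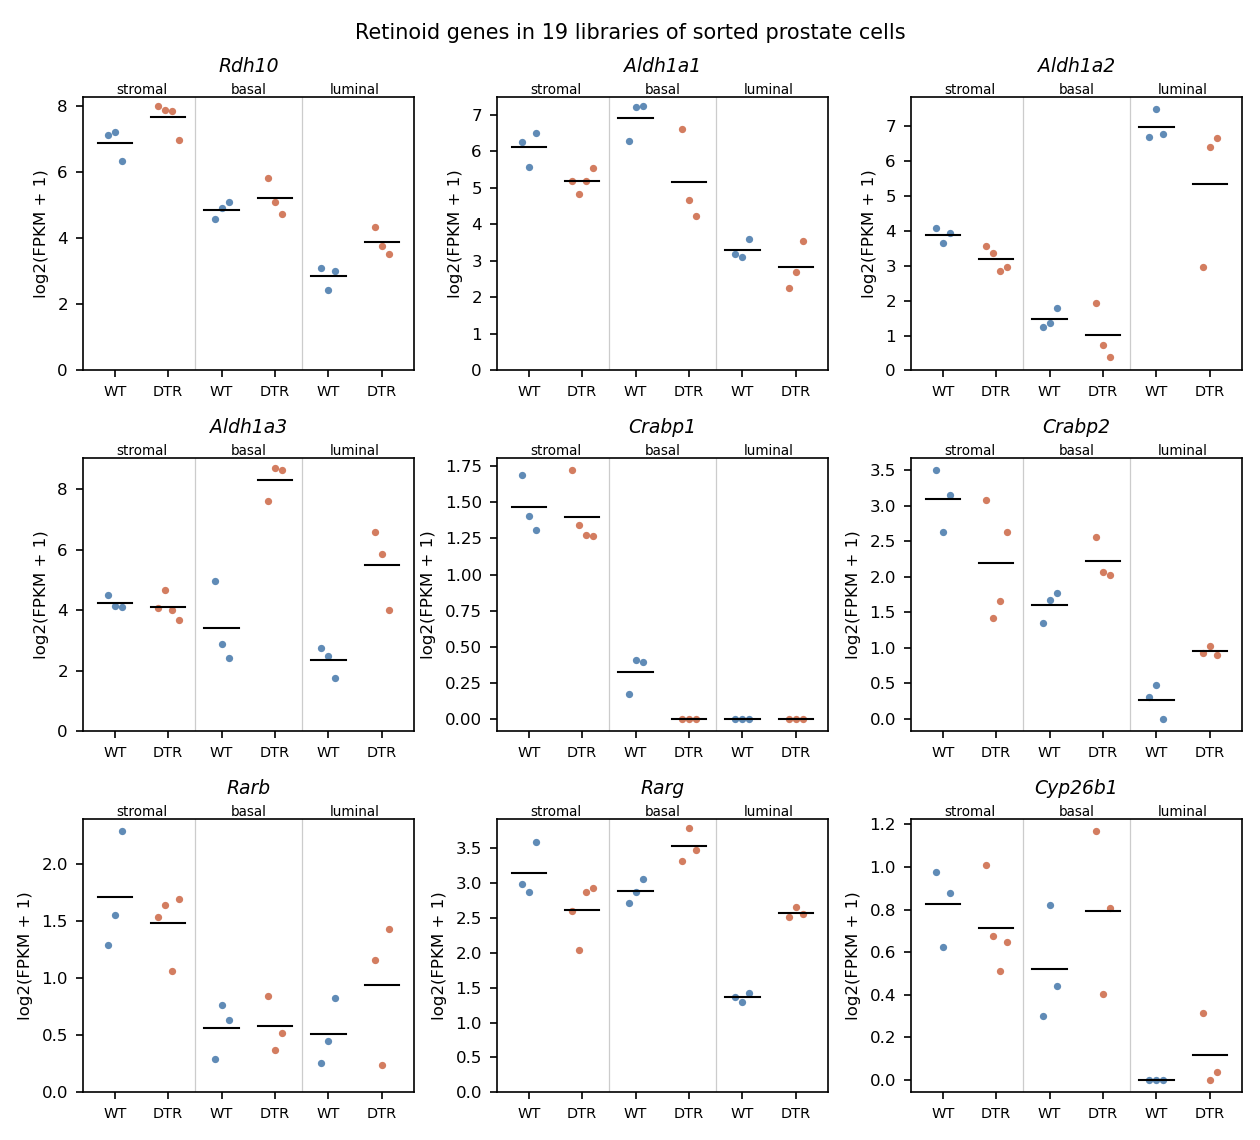
Level of each of the 9 genes on the log2(FPKM + 1) scale in the 19 libraries, by population and genotype. Points are libraries (blue wild type, orange Lgr5-DTR), bars are group means. Aldh1a3 is the gene whose epithelial Lgr5-DTR libraries stand farthest above wild type (194.5 to 410.3 against 4.35 to 30.3 FPKM in basal cells), while its stromal groups overlap.

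The 3 retinaldehyde dehydrogenase genes divided the wild type populations among them. Aldh1a1 (NM_013467, chromosome 19, 20601982 to 20643462) measured 77.5, 148.1 and 150.3 FPKM in wild type basal cells, 76.0, 46.4 and 90.5 FPKM in stromal and 8.17, 7.55 and 11.1 FPKM in luminal cells. Aldh1a2 (NM_009022, chromosome 9, 71215789 to 71296243), the enzyme known for retinoic acid synthesis in the early embryo, had the reverse order in the epithelium, at 101.2, 177.2 and 108.4 FPKM in luminal cells and 1.38, 1.58 and 2.46 FPKM in basal cells. Stromal cells held 15.8, 11.4 and 14.3 FPKM of Aldh1a2. The high levels of Aldh1a1 were thus in basal and stromal libraries, and those of Aldh1a2 in luminal ones. The basal mean of Aldh1a2 was 1.40% of the luminal mean, beside 0.695% for the secretory marker Pbsn and 10.1% for the luminal transcription factor Hoxb13, and whether the basal level is luminal RNA in the basal sort was not tested. Aldh1a3 (NM_053080, chromosome 7, 66390893 to 66427477) was low in wild type epithelium, at 30.3, 6.37 and 4.35 FPKM in basal cells and 5.79, 4.65 and 2.42 FPKM in luminal cells, with 21.9, 16.5 and 16.1 FPKM in stroma. The lowest of the 3 forms was Aldh1a2 in every wild type basal library and Aldh1a3 in every wild type luminal one.

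In Lgr5-DTR epithelium Aldh1a3 was the form that stood higher. Basal libraries held 194.5, 410.3 and 396.3 FPKM, and the groups were far apart. The means were 334 ± 121 and 13.7 ± 14.4 FPKM (SD, n = 3 each), a ratio of 24.4 and a log2 difference of 4.89 (SE 0.61), which ranged from 4.39 to 5.66 as each library was left out. In luminal cells the Lgr5-DTR libraries held 94.6, 57.5 and 15.2 FPKM, again all above wild type, with means of 55.8 ± 39.7 and 4.29 ± 1.72 FPKM (SD, n = 3 each), a ratio of 13.0 and a log2 difference of 3.15 (SE 0.64; 2.60 to 3.88 as each library was left out). Lgr5-DTR stromal libraries, at 15.8, 24.5, 15.1 and 11.8 FPKM, overlapped the wild type ones, with a log2 difference of -0.14 (SE 0.26) that was 0.00 without Lgr5-DTR replicate 4. The order of the 6 groups for Aldh1a3 was Lgr5-DTR basal, Lgr5-DTR luminal, wild type stromal, Lgr5-DTR stromal, wild type basal and wild type luminal. Only the first and second of these did not overlap as neighbours.

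Some markers of proximal luminal cells, the cells of the prostatic ducts near the urethra, were also higher in Lgr5-DTR epithelium. Clu and Ly6d were called higher in both epithelial populations, and Krt7 and Wfdc2 in basal cells. The 7 genes (Krt4, Krt7, Psca, Ly6d, Wfdc2, Clu and Ppp1r1b) summed to 1654, 2767 and 2649 FPKM in Lgr5-DTR basal replicates 1 to 3 and to 281 to 565 FPKM in wild type basal libraries. In luminal cells the sums were 3721, 2724 and 1046 FPKM in Lgr5-DTR replicates 1 to 3 and 131 to 481 FPKM in wild type. None of the 7 was at 0 throughout a group, 4 of 6 tested were called higher in basal cells and 2 of 7 in luminal cells, and stromal sums were 15.0 to 99.3 FPKM over both genotypes. The sums were mostly those of Clu, the clusterin gene, which made up 92.4% to 97.9% of them in Lgr5-DTR luminal and 54.7% to 67.8% in Lgr5-DTR basal libraries. Without Clu the other 6 genes summed to 749 to 967 FPKM in Lgr5-DTR and 192 to 358 FPKM in wild type basal libraries, and to 121, 57.2 and 79.4 FPKM in Lgr5-DTR luminal replicates 1 to 3 against 24.6 to 50.4 FPKM in wild type. Psca and Ppp1r1b overlapped between genotypes in both populations, Krt4 in basal cells, and Krt7 and Wfdc2 in luminal cells. The libraries took the same order by Aldh1a3 as by the sum of 7 in 3 of the 4 epithelial groups (not wild type luminal), and by the sum without Clu also in 3, but there Lgr5-DTR luminal was the exception. The part of these cells in the Aldh1a3 difference was not tested. In bulk libraries such as these, a change in the number of cells of a type and a change in RNA per cell cannot be told apart. The 6 seminal vesicle markers, genes of the neighbouring gland, summed to at most 1.00 FPKM in any library.

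Other marker lists also separated the basal libraries in which Aldh1a3 was high. Luminal markers summed to 6247 to 8601 FPKM in Lgr5-DTR basal and 4906 to 5703 FPKM in wild type basal libraries, with 3 of 10 tested called higher (Krt19, Epcam and Cldn3). The secretory marker Pbsn overlapped, at 30.9 to 159 and 116 to 173 FPKM. The 6 urothelial markers summed to 26.8 to 36.3 against 16.7 to 21.6 FPKM, with 2 of 4 tested called higher (Upk3a and Krt20). Endothelial and mesothelial sums were higher too, at 13.0 to 29.7 against 5.89 to 10.8 FPKM (0 of 5 tested called) and at 1400 to 2033 against 499 to 776 FPKM (1 of 1, Krt19, a luminal marker as well). Basal, fibroblast, smooth muscle and Schwann cell sums were lower, the last 3 at 317 to 645 against 735 to 885, 257 to 331 against 430 to 487 and 55.3 to 60.9 against 77.2 to 109 FPKM. Basal markers did not all go the same way. Of 10 tested, 3 were called lower (Krt15, Trp63 and Dst) and 1 higher (Col17a1). Krt5 was higher without overlap but not called, at 417 to 461 against 307 to 381 FPKM. The fibroblast sum was nearly all Dcn (313 to 636 against 730 to 880 FPKM). Without Dcn the fibroblast sums overlapped, at 2.72 to 9.19 against 5.05 to 6.32 FPKM. The smooth muscle sum was mostly Smtn (246 to 317 against 388 to 452 FPKM). These 2 sums thus rest mainly on 1 gene each. The part of these cells in the basal differences was not tested.

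Aldh1a1 and Aldh1a2 lay lower in stroma of Lgr5-DTR mice, with no overlap. Aldh1a1 measured 35.7, 27.8, 35.6 and 45.9 FPKM there, so the means were 36.2 ± 7.44 (SD, n = 4) and 70.97 ± 22.5 FPKM (SD, n = 3), a log2 difference of -0.92 (SE 0.26). Aldh1a2 measured 10.7, 9.33, 6.19 and 6.87 FPKM, with means of 8.28 ± 2.12 (SD, n = 4) and 13.9 ± 2.23 FPKM (SD, n = 3) and a log2 difference of -0.70 (SE 0.24). Fibroblast markers were lower in the same libraries (3212 to 3938 against 5984 to 6240 FPKM, with 3 of 10 called lower and none at 0). Smooth muscle markers summed higher there (397 to 498 against 283 to 345 FPKM, with a median log2 difference of 0.90 over 7 tested, 0 called and none at 0). Schwann cell markers, nearly all of it Pmp22, summed to 191 to 289.9 against 290.2 to 330.1 FPKM. The part of these cells in the stromal differences, that of Rdh10 included, was not tested.

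In the epithelium the differences of Aldh1a1 and Aldh1a2 each turned on 1 library. Basal Aldh1a1 measured 97.0, 24.5 and 17.7 FPKM in Lgr5-DTR, against 77.5 to 150.3 FPKM in wild type. Replicate 1 lay inside the wild type range and the other two far below it, so the log2 difference of -1.75 (SE 0.57) was -2.47 when that library was left out and -1.28 when replicate 3 was. Luminal Aldh1a2 measured 6.79, 82.9 and 100.03 FPKM, all below the lowest wild type library at 101.2 FPKM. Here the log2 difference of -1.64 (SE 1.02) was -0.45 without Lgr5-DTR replicate 1, the library with the highest luminal level of Aldh1a3. Luminal Aldh1a1, at 3.75, 5.43 and 10.7 FPKM, and basal Aldh1a2, at 2.80, 0.667 and 0.302 FPKM, overlapped wild type, with log2 differences of -0.47 (SE 0.32) and -0.45 (SE 0.38). These ranged from -0.83 (without Lgr5-DTR replicate 3) to -0.18 (without Lgr5-DTR replicate 1) and from -0.91 (without Lgr5-DTR replicate 1) to -0.14 (without Lgr5-DTR replicate 3).

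Summed over the 3 genes, the leading form differed between the genotypes in basal cells, while luminal totals overlapped. Wild type basal cells held 141 ± 27.4 FPKM in all (SD, n = 3), of which Aldh1a1 made up 87.2% on average. Lgr5-DTR basal cells held 381 ± 76.1 FPKM (SD, n = 3), and Aldh1a3 made up 66.1%, 94.2% and 95.7% of it in the 3 libraries against 27.7%, 4.08% and 2.77% in wild type. Thus the leading basal form was Aldh1a1 in every wild type library and Aldh1a3 in every Lgr5-DTR library. Luminal totals were 126 ± 20.4 FPKM in Lgr5-DTR and 142 ± 41.1 FPKM in wild type (SD, n = 3 each). The share of Aldh1a2 in them was 87.9% to 93.6% in wild type and 6.46%, 56.8% and 79.4% in Lgr5-DTR replicates 1 to 3, where Aldh1a3 took 90.0%, 39.5% and 12.1%. Stromal totals were 103 ± 25.1 FPKM in wild type (SD, n = 3) and 61.3 ± 3.21 FPKM in Lgr5-DTR (SD, n = 4), and Aldh1a1 led in both, at 62.5% to 74.9% and 45.1% to 71.1%.

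**Figure D2:**
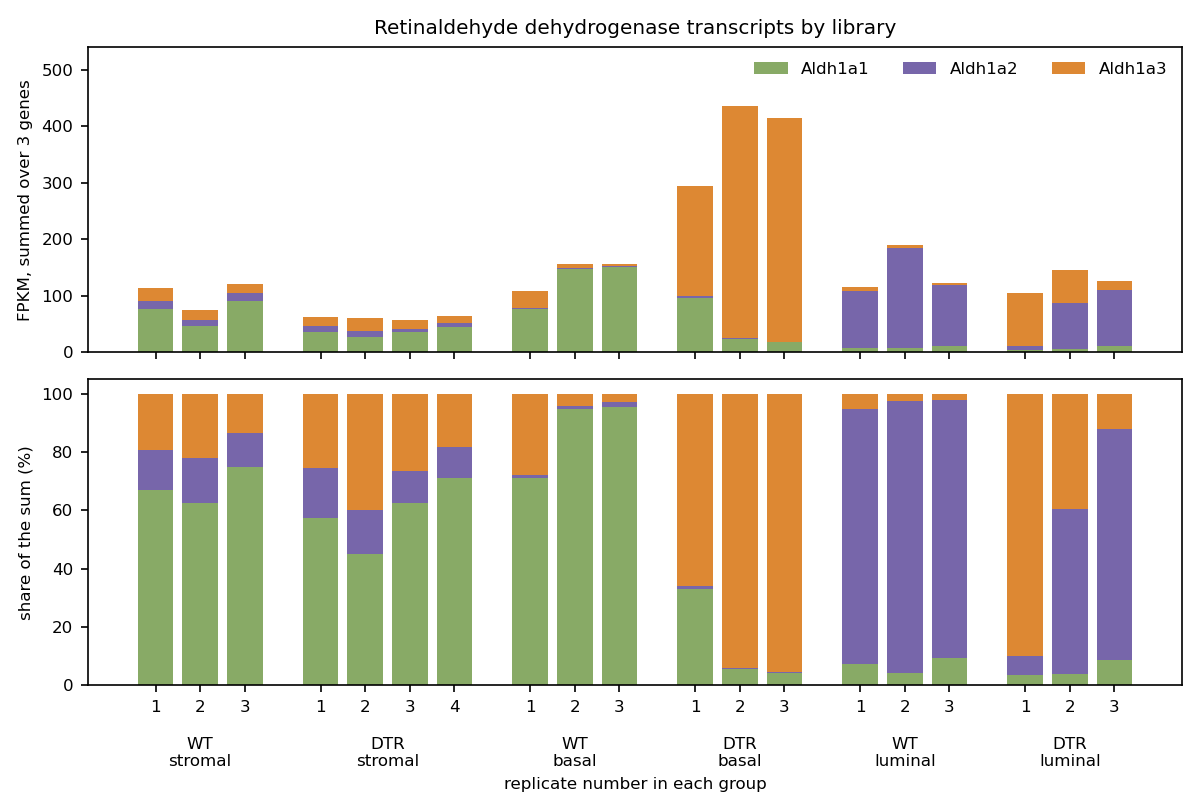
Aldh1a1, Aldh1a2 and Aldh1a3 in each library, as summed FPKM (top) and as shares of that sum in percent (bottom), by group and replicate number. Bars are single libraries. Aldh1a3 takes 66.1% to 95.7% of the sum in Lgr5-DTR basal libraries and 2.77% to 27.7% in wild type basal libraries.

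The binding protein genes were low and had their highest means in stroma. Crabp1 (chromosome 9, 54764748 to 54773110) was listed at 0 in all 6 luminal libraries and in the 3 Lgr5-DTR basal ones, and at 0.127, 0.328 and 0.314 FPKM in wild type basal libraries, so the basal groups did not overlap. Stromal libraries held 2.30, 1.53, 1.42 and 1.41 FPKM in Lgr5-DTR and 2.22, 1.64 and 1.48 FPKM in wild type, with a log2 difference of -0.07 (SE 0.23). Those ranges overlapped almost fully. Crabp2 (NM_007759, chromosome 3, 87948693 to 87953372) stood at 10.3, 5.19 and 7.92 FPKM in wild type stroma and at 7.52, 1.67, 2.17 and 5.22 FPKM in Lgr5-DTR stroma, with overlap and a log2 difference of -0.89 (SE 0.40).

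Crabp2 had the opposite sign in the epithelium. Basal libraries held 4.89, 3.19 and 3.09 FPKM in Lgr5-DTR and 1.55, 2.20 and 2.44 FPKM in wild type, with no overlap, a ratio of the means of 1.81 and a log2 difference of 0.62 (SE 0.22). Luminal levels were lower, at 0.913, 1.04 and 0.862 FPKM in Lgr5-DTR and 0.236, 0.394 and 0 FPKM in wild type. They did not overlap either, but the gene did not reach 1 FPKM in 3 luminal libraries and was not fitted there. The difference of the Crabp2 differences between epithelium and stroma was not tested.

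Rarg, a receptor gene known for its high expression in epithelia, was higher in Lgr5-DTR basal and luminal cells. The gene (chromosome 15, 102234938 to 102257522) measured 4.71, 5.31 and 4.86 FPKM in Lgr5-DTR luminal libraries and 1.57, 1.45 and 1.69 FPKM in wild type ones. The means were 4.96 ± 0.311 and 1.57 ± 0.117 FPKM (SD, n = 3 each), a ratio of 3.16 and a log2 difference of 1.21 (SE 0.20), with 1.17 to 1.25 as each library was left out. Replicate spread was small beside this gap in both groups. In basal cells Lgr5-DTR libraries held 8.93, 12.8 and 10.1 FPKM and wild type libraries 5.53, 6.33 and 7.33 FPKM, again without overlap, with a log2 difference of 0.64 (SE 0.18). Stromal libraries held 5.07, 3.10, 6.29 and 6.60 FPKM in Lgr5-DTR and 6.87, 6.34 and 11.0 FPKM in wild type, with overlap and a log2 difference of -0.54 (SE 0.28).

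The luminal difference of Rarg lay in the transcript of the upstream start, NM_011244, whose promoter is the second printed above. That transcript measured 4.03, 5.31 and 3.42 FPKM in Lgr5-DTR luminal libraries and 1.03, 0.408 and 0.866 FPKM in wild type. The other transcript, NM_001042727, which starts at 102246500, overlapped between genotypes, at 0.689, 0 and 1.45 FPKM against 0.542, 1.04 and 0.821 FPKM. In basal cells nearly all Rarg signal was again in NM_011244, at 8.93, 12.8 and 10.1 FPKM in Lgr5-DTR and 5.53, 5.09 and 7.33 FPKM in wild type, while NM_001042727 was listed at 0 in all but wild type replicate 2 (1.24 FPKM). Stroma used both starts, with NM_001042727 at 2.89 to 4.82 FPKM in wild type and 0.824 to 3.28 FPKM in Lgr5-DTR, and NM_011244 at 3.45 to 6.22 and 2.28 to 3.49 FPKM. Cufflinks splits the reads of shared exons between these transcripts by estimation, and a listed 0 can come from that split.

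**Figure D3:**
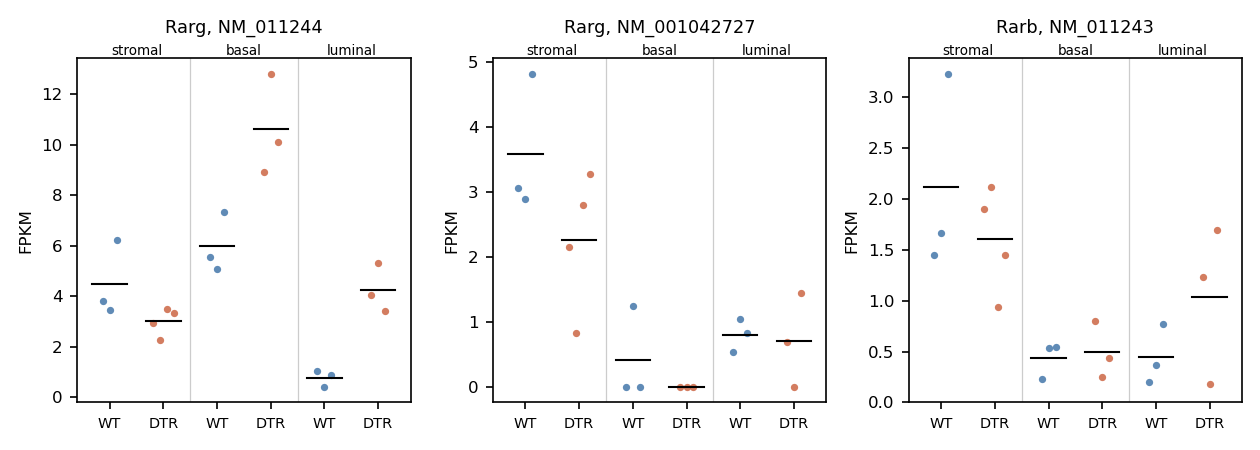
FPKM of Rarg transcripts NM_011244 and NM_001042727 and of Rarb transcript NM_011243, by population and genotype. Points are libraries (blue wild type, orange Lgr5-DTR), bars are group means. NM_011244 is at 3.42 to 5.31 FPKM in Lgr5-DTR luminal libraries and 0.408 to 1.03 FPKM in wild type, while NM_001042727 overlaps there.

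Rarb (chromosome 14, 16430840 to 16575476 for transcript NM_011243), whose own promoter carries the repeat printed above, showed no separation between genotypes. Summed over its transcripts, the gene measured 1.91, 2.12, 1.09 and 2.24 FPKM in Lgr5-DTR stroma and 1.45, 1.93 and 3.91 FPKM in wild type stroma, with a log2 difference of -0.23 (SE 0.28) that was 0.06 without wild type replicate 3. Of this, NM_011243 held 1.91, 2.12, 0.940 and 1.45 FPKM in Lgr5-DTR and 1.45, 1.67 and 3.24 FPKM in wild type. For the gene, luminal libraries held 1.24, 0.184 and 1.70 FPKM in Lgr5-DTR and 0.196, 0.368 and 0.772 FPKM in wild type, and basal libraries 0.799, 0.297 and 0.433 against 0.226, 0.696 and 0.550 FPKM. All 3 populations overlapped. Cyp26b1 (NM_001177713, chromosome 6, 84571414 to 84593908) was near the lower end of detection, at 1.01, 0.599, 0.427 and 0.568 FPKM in Lgr5-DTR stroma and 0.965, 0.541 and 0.836 FPKM in wild type stroma. Basal libraries held 1.25, 0.325 and 0.751 FPKM in Lgr5-DTR and 0.230, 0.766 and 0.358 FPKM in wild type, luminal libraries 0.244, 0 and 0.0263 FPKM in Lgr5-DTR, and the 3 wild type luminal libraries were listed at 0. No group of Cyp26b1 stood apart from its wild type counterpart, and its second transcript, NM_175475, was listed at 0 in all 19 libraries.

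Counts over the 9 genes are given beside those of all genes, and nothing is read from them. In limma fits with Benjamini-Hochberg adjustment at 0.05, stromal calls fell on 0 of the 8 members tested, where 1.17% of 10689 genes were called (at an unadjusted p under 0.05 in limma, 4 of the 8 and 11.5% of all genes). Basal calls fell on 1 of 6 (Aldh1a3), where 11% of 9755 genes were called, and luminal calls on 1 of 5 (Rarg), where 3.14% of 10524 genes were called. The basal count was 4 without Lgr5-DTR replicate 1 (Aldh1a1, Aldh1a2, Aldh1a3 and Rarg) and 2 from the largest transcript of each gene (Aldh1a3 and Rarg). The luminal count was 0 with no filter on low values and without Lgr5-DTR replicate 1, wild type replicate 2 or wild type replicate 3. It was 3 (Rdh10, Aldh1a3 and Rarg) without Lgr5-DTR replicate 3 and with the processing set as a covariate, and a filter at 5 FPKM left Aldh1a3 as the 1 call of 4 tested. With quantile scaling the luminal calls over all genes were 144 higher and 73 lower, against 276 and 54 unscaled. Members whose groups did not overlap, among those tested, were 2 lower of 8 in stroma (9.39% of all genes lower, 1.8% higher), 3 higher of 6 in basal cells (17.5% higher, 13.7% lower), and 3 higher and 1 lower of 5 in luminal cells (17.4% higher, 9.63% lower). Median log2 differences were -0.38 over the 8 stromal members (all genes -0.09), 0.48 over the 6 basal members (all genes 0.02) and 1.02 over the 5 luminal members (all genes 0.10).

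**Figure D4:**
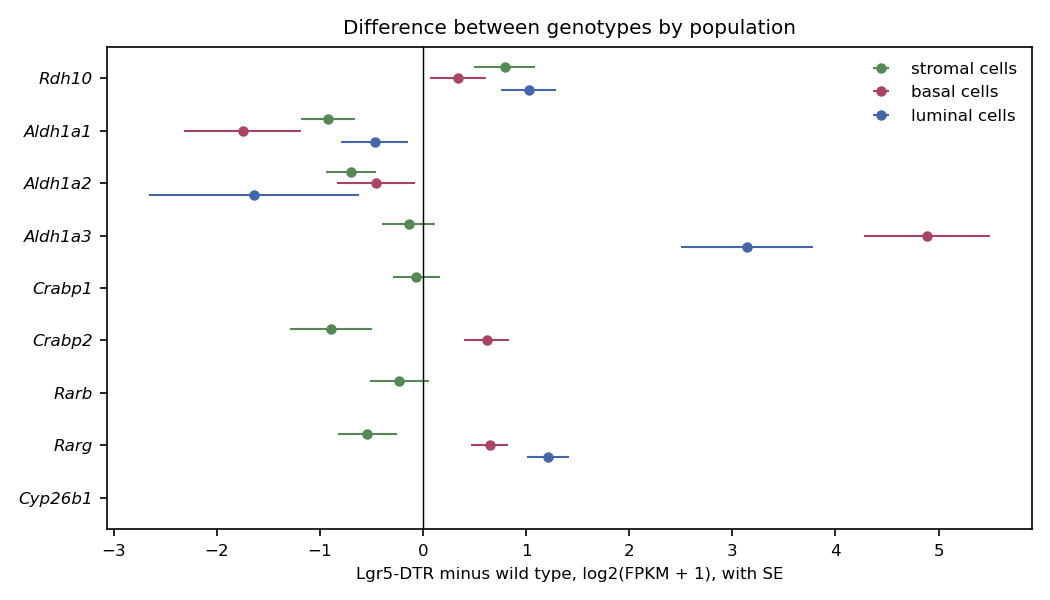
Difference between Lgr5-DTR and wild type libraries for each gene and population, on the log2(FPKM + 1) scale. Points are differences from limma, lines are 1 SE, and a gene not tested in a population has no point (Cyp26b1 has none). Aldh1a3 is at 4.89 in basal and 3.15 in luminal cells and -0.14 in stromal cells.

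Of 10 luminal markers tested in luminal libraries, 1 was called, the secretory marker Pbsn. It was lower, at 7500 to 9647 FPKM in Lgr5-DTR against 16876 to 22090 FPKM in wild type. The luminal marker sums were 26786 to 33422 FPKM in Lgr5-DTR and 26886 to 29683 FPKM in wild type. Tgm4 held 8420 to 8765 FPKM of the Lgr5-DTR sums and stood at a failed or capped 0 in wild type. The overlap of the sums thus rests on Tgm4, and without it every Lgr5-DTR sum lies below all wild type sums. The part of the lower Pbsn in the luminal differences of the members was not tested. Marker sums of other cells also differed in luminal libraries. The 10 fibroblast markers summed to 116 to 267 FPKM in Lgr5-DTR luminal libraries and 71.9 to 78.3 FPKM in wild type, with 4 of 6 tested called higher and none listed at 0. The 9 macrophage markers summed to 32.5 to 142 FPKM against 21.9 to 28.3 FPKM, with 1 of 7 tested called higher. Schwann cell markers summed to 89.2 to 174 against 55.7 to 86.3 FPKM, with 1 of 6 tested called higher (Sox10) and none at 0. These sums stood beside the luminal differences of Rdh10, Crabp2 and Rarg, which all have higher levels in stroma than in wild type luminal cells, and their part in those differences was not tested. In Lgr5-DTR luminal replicates 1 to 3 the fibroblast sums were 267, 116 and 235 FPKM. In the same order Rdh10 was at 19.5, 12.7 and 10.5 FPKM and Crabp2 at 0.913, 1.04 and 0.862 FPKM. Rarg was at 4.71, 5.31 and 4.86 FPKM. Nothing is read from an order of 3 libraries.

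Among wild type populations, 8 members were tested. The counts past the limma threshold were 5 of 8 for basal against luminal cells (62.3% of 11566 genes called), 6 of 8 for stromal against basal cells (57% called) and 8 of 8 for stromal against luminal cells (67.8% called). Stromal cells had the higher level in 7 of the last 8, and Aldh1a2 was the exception. Over all genes, 28.5% were called higher and 39.3% lower in stromal than in luminal cells. The members were chosen with these levels known, so nothing is read from this count. The filter here was 3 wild type libraries at 1 FPKM, and Crabp1 and Rarb met it only through the 3 stromal libraries. Their higher stromal level in both stromal comparisons was thus set by the filter. For basal against luminal cells Aldh1a2 was likewise the member with the higher luminal level among the 5 called. Over all genes, 25.5% were called higher and 36.8% lower in basal than in luminal cells.

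The genes whose log2(FPKM + 1) values followed each member most closely over the 19 libraries are given as a description, among 12208 genes. Points share their populations, so a coefficient mostly reflects differences between the sorts. Aldh1a3 was most like Sbsn (Pearson r 0.975), Dmkn (0.937) and Rab32 (0.921). The suprabasin gene Sbsn and the dermokine gene Dmkn encode secreted proteins of stratified epithelium, and Dmkn averaged 239 FPKM in Lgr5-DTR basal and 4.64 FPKM in wild type basal cells. Rdh10 was most like the cytokine gene Il11 (0.980), Ecscr (0.979) and Spsb1 (0.976), which all had their highest means in Lgr5-DTR stroma. Aldh1a1 followed Fah (0.959), Slc1a3 (0.950) and Rasl11b (0.946), each with its highest mean in wild type basal cells. The closest to Aldh1a2 were BC031181 (0.958), the lysosomal fucosidase gene Fuca1 (0.954) and Rnasek (0.953), each highest in wild type luminal cells. For Crabp2 they were Diap1 (0.947), Glud1 (0.944) and Zfp326 (0.938), and for Rarg they were Capg (0.910), Tbc1d2b (0.899) and Tspo (0.897).

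The other pathway genes that passed the test were called in basal cells. Of 46 listed genes, 44 were in the tables and 20 stayed under 1 FPKM in every library, among them the retinoic acid-degrading Cyp26a1 (at most 0.156 FPKM) and Cyp26c1 (at most 0.0281 FPKM). In basal cells 2 of the 18 tested rose and 1 fell, 16.7% where 11% of all genes were called. Among 22 tested in stroma and 19 in luminal cells, 0 passed limma with Benjamini-Hochberg adjustment, and at an unadjusted p under 0.05 there were 0 higher and 2 lower in stroma and 4 higher and 1 lower in luminal cells, where 11.5% and 22.7% of all genes passed in either direction. The median log2 difference of the list was -0.16 in basal, -0.24 in stromal and 0.22 in luminal cells, against 0.02, -0.09 and 0.10 for all genes.

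Stra6, which encodes a membrane receptor that takes up retinol from its plasma carrier, rose in basal cells. Its levels were 29.0, 18.9 and 28.5 FPKM in Lgr5-DTR and 9.99, 12.6 and 7.90 FPKM in wild type, a log2 difference of 1.24 (SE 0.22, limma adjusted p = 0.0103). All 3 Lgr5-DTR libraries lay above wild type. Luminal levels of Stra6 were low and also higher without overlap, at 0.980 to 2.13 against 0 to 0.592 FPKM, but the gene was not tested there. In stroma Stra6 was at 39.2 to 54.6 FPKM in Lgr5-DTR and 47.7 to 54.0 FPKM in wild type (log2 -0.12, SE 0.20, limma adjusted p = 0.906), and the difference of the basal and stromal effects was 1.36 (SE 0.32, limma adjusted p = 0.0207). That difference was lost with a pseudocount of 0.1 and without Lgr5-DTR basal replicate 3, wild type basal replicate 3 or wild type stromal replicate 3, with adjusted p values from 0.0175 to 0.287 over its alternatives.

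Among the receptor partners, Nrip1, which encodes a corepressor of nuclear receptors, fell in basal cells from 100.7, 144.5 and 123.8 FPKM in wild type to 67.6, 41.2 and 57.5 FPKM (log2 -1.15, SE 0.21, limma adjusted p = 0.012). The receptor gene Rara rose from 5.18, 5.02 and 4.97 FPKM to 6.89, 9.04 and 9.60 FPKM (log2 0.64, SE 0.17, limma adjusted p = 0.0458). None of these groups overlapped. Leaving out any 1 library except Lgr5-DTR replicate 1 ended the call of Rara, as did the processing set as a covariate, the absence of a filter on low values and both other scalings. Nrip1 lost its call without Lgr5-DTR replicate 2, wild type replicate 2 or wild type replicate 3. The call of Stra6 in basal cells held without each of the 6 libraries.

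Several enzyme and target genes had basal differences that did not pass. Adh1, an alcohol dehydrogenase that oxidises retinol, was at 60.1, 11.98 and 10.8 FPKM in Lgr5-DTR basal cells and 36.4, 76.5 and 68.8 FPKM in wild type (log2 -1.48, SE 0.59, limma adjusted p = 0.15). The retinaldehyde reductase gene Dhrs3 was at 6.21 ± 4.77 and 11.3 ± 0.998 FPKM (log2 -0.95, limma adjusted p = 0.147, SD, n = 3 each), and Tgm2, the transglutaminase gene induced by retinoic acid in many cells, at 42.1 ± 33.9 and 100.1 ± 32.9 FPKM (log2 -1.45, limma adjusted p = 0.1, SD, n = 3 each). As with basal Aldh1a1, Lgr5-DTR replicate 1 was the highest of its group for Adh1 and overlapped wild type. Fabp5, a fatty acid-binding protein gene whose product also carries retinoic acid, was at 123 ± 19.4 and 189.6 ± 92.3 FPKM in basal cells (log2 -0.53, limma adjusted p = 0.295, SD, n = 3 each). In luminal cells Rara was at 8.89 ± 0.541 and 5.49 ± 0.599 FPKM with no overlap (log2 0.61, SE 0.19, limma adjusted p = 0.104, SD, n = 3 each).

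**Figure D5:**
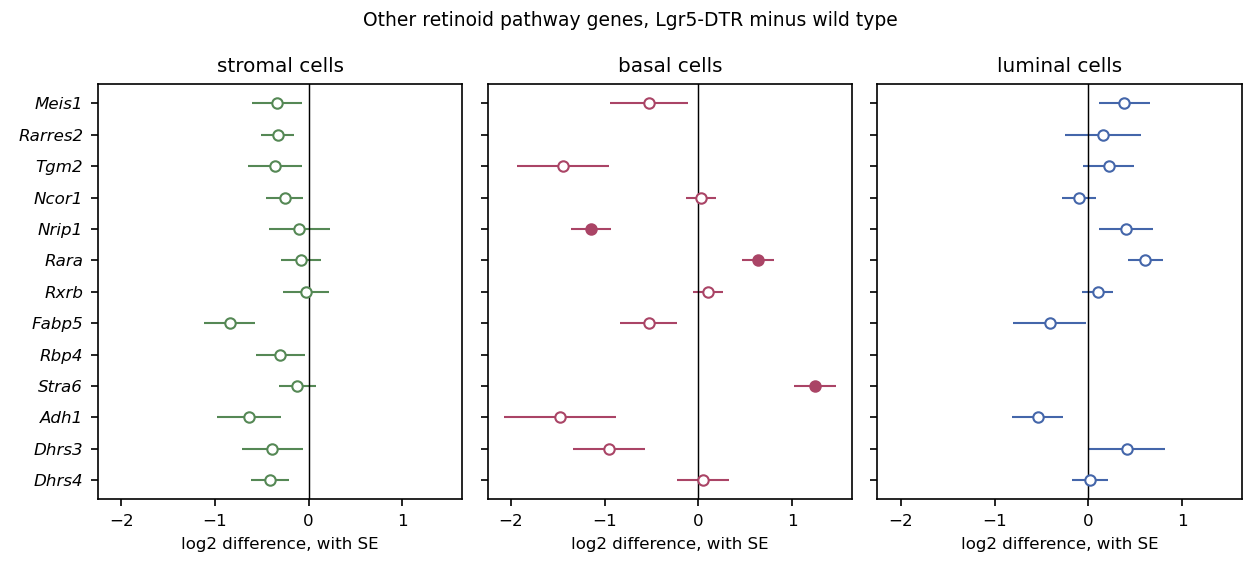
Difference between Lgr5-DTR and wild type libraries for the named other genes of the retinoid pathway, on the log2(FPKM + 1) scale, in stromal, basal and luminal cells. Circles are differences from limma with 1 SE, and filled circles passed the threshold. The 3 filled circles are Stra6 (1.24), Rara (0.64) and Nrip1 (-1.15), all in basal cells.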

How the data were processed

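RNA from flow-sorted cells was amplified with a low-input full-length kit, tagmented into libraries and run on an Illumina HiSeq, per the labels' protocols. The authors deposited FPKM per RefSeq transcript, and the submitters' processing notes name TopHat2, Cufflinks and mm10 but no versions. The deposited tables also hold coverage, which served here only to give depth. Depth was 5.26 to 9.38 gigabases per library. As no counts were used, there are no counting intervals, and precision comes from the replicates. p-values measure the spread between libraries, which may be technical.

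FPKM were summed per gene symbol (34535 transcripts, 24343 symbols). A gene was tested in a population where at least 3 libraries reached 1 FPKM and no estimate was failed or capped. log2(FPKM + 1) was fitted by the limma package, version 3.58.1 (R 4.3.3), with a variance trend and robust moderation, each population apart, and with Benjamini-Hochberg adjustment at 0.05. The log scale understates changes of low genes. Wild type populations were compared in 1 fit over the wild type libraries. The genotype effect was compared between populations over all 19 libraries, with a separate fit and gene filter for each pair of populations. These comparisons of the genotype effect are the differences between populations named below. The fits were tested on simulated data with 200 changed genes. Software was Python 3.11.15 with numpy 2.4.6, pandas 2.3.3 and matplotlib 3.10.9.

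The members and all lists were chosen with earlier results of these data known. Named were all 9 members, pathway genes called in a genotype comparison, the 3 pathway genes per list with the highest mean FPKM, and the 3 genes most like each member whose highest group mean reached 5 FPKM. Of the named genes, Cyp26a1, Cyp26c1, Dhrs4, Meis1, Ncor1, Rarres2, Rbp4 and Rxrb had no call. Some genes of the lists are not reported here and were left out of list counts and sums. Alternatives were other pseudocounts, filters, scalings, the largest transcript, failed or capped estimates kept, the processing set as a covariate, a replicate block and leaving out each library.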

Additional observations from a re-analysis of the deposited data

Results flagged for a closer look

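In a group of 4 libraries, 1 library can lie far from the others, and 24 such sets were examined, where chance marks about 1 in 20. Crabp1 was at 2.30 FPKM in Lgr5-DTR stromal replicate 1, against 1.41 to 1.53 FPKM in the other 3 libraries of that group. Cyp26a1 was at 0.0553 FPKM in Lgr5-DTR stromal replicate 3 and listed at 0 in the other 3, a level too low to read.

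The effect of genotype on Stra6 differed between basal and stromal cells by 1.36 on the log2 scale (limma interaction, adjusted p = 0.0207), with all 3 Lgr5-DTR basal libraries above wild type. Rdh5, a retinol dehydrogenase gene named here after its values were seen, differed between luminal and stromal cells by 1.17 (limma interaction, adjusted p = 0.0312). Its log2 difference was 0.54 in luminal cells (limma adjusted p = 0.218) and -0.63 in stromal cells (limma adjusted p = 0.365), at levels near 1 FPKM (1.25, 1.51 and 2.13 FPKM in Lgr5-DTR luminal libraries and 0.964, 0.571 and 0.866 FPKM in wild type). In stroma Rdh5 was at 0.336 to 0.933 FPKM in Lgr5-DTR and 1.09 to 2.50 FPKM in wild type. The filter of 3 libraries at 1 FPKM was thus met only by Lgr5-DTR libraries in luminal cells and only by wild type ones in stroma. As Rdh5 entered the test only through its high groups, nothing is read from this interaction. The Rdh5 result was lost under 7 of its 20 alternatives, with adjusted p values from 0.0273 to 0.240, among them without Lgr5-DTR stromal replicate 1 or 3 and without wild type luminal replicate 2 or 3.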

How the results depend on the processing

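Over their alternatives, 302 of 307 log2 differences of the members moved by less than the spread between replicates. The 5 others were all luminal Rarg, at 1.60 and 1.40 with pseudocounts of 0.1 and 0.5, 0.98 and 1.12 with quantile and median scaling and 1.39 from its largest transcript, against 1.21. The count of 302 is no measure of stability. Some settings, such as another filter, return the same difference for any gene still tested. The yardstick was each gene's own SD between replicates, which was small for luminal Rarg. Luminal Aldh1a2 went from -1.64 to -0.45 without Lgr5-DTR replicate 1 and counted as not moved. The all-gene median log2 difference shifted in stroma by 0.12 under quantile and 0.11 under median scaling, and in luminal cells by -0.15 under quantile scaling. Counts of called genes moved far more, and the cause was not tested unless a setting tests fewer genes or libraries.

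Stromal calls (125) were 36 with no filter on low values, 75 with a filter at 5 FPKM, 77 and 76 with quantile and median scaling and 49 with the processing set as a covariate. Basal calls (1069) were 492 with no filter. Luminal calls (330) were 4 with no filter, 217 with quantile scaling and 750 with the processing set. Pathway genes called in basal cells (3) were 2 with no filter and 2 with the processing set. The tests of difference between populations gave 325 genes for basal against luminal, 306 for basal against stromal and 324 for luminal against stromal cells. With no filter these were 461 for basal against stromal and 556 for luminal against stromal. A filter at 5 FPKM gave 208, 199 and 183, and quantile and median scaling gave 189 and 183 for luminal against stromal. Calls between wild type populations stayed within 1.5 times under all alternatives run. The covariate and block were not run for the differences between populations.

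Leaving out each library gave 31 to 232 stromal, 290 to 2231 basal and 0 to 876 luminal calls, 1 to 8 basal, 0 to 1 luminal and 0 to 0 stromal pathway genes, and 137 to 557, 131 to 388 and 149 to 400 genes for the 3 differences. The 0 luminal calls came without wild type replicate 3, the 2231 basal calls without Lgr5-DTR replicate 1.

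Libraries with the same replicate number did not deviate together in every pair (correlations were -0.0457 to 0.486 for stromal libraries, -0.526 to -0.230 for basal and -0.124 to 0.380 for luminal ones). The main fits therefore did not take the numbers as pairs. In stroma replicates 1 and 2 gave 0.376 and 0.486, and whether the numbers mark pairs there was not settled. With a replicate block there were 1041 stromal, 213 basal and 755 luminal calls, with 2 stromal and 0 basal pathway genes among them. Of the members, the block called 3 of 8 in stroma (Rdh10, Aldh1a1 and Crabp2), 1 of 6 in basal cells (Aldh1a3) and 3 of 5 in luminal cells (Rdh10, Aldh1a3 and Rarg). Of 6 libraries per population, 5 stromal, 0 basal and 3 luminal ones correlated best with their own number.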
